A study of Mus musculus with 3 samples.

Results

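The regions described here are CAP-D3 peaks of RbΔL/ΔL fibroblasts that lie far from every Rb+/+ peak. They were chosen by position alone: peaks on chromosomes 1 to 19 of the RbΔL/ΔL list whose nearest Rb+/+ peak on the same chromosome was at least 500 kb away, measured edge to edge. Of the 6283 autosomal RbΔL/ΔL peaks, 366 qualified (5.83%, exact 95% interval 5.26 to 6.43%). A further 4865 lay closer without touching an Rb+/+ peak, and 1052 overlapped one by at least 1 bp. Distance to the Rb+/+ list was thus the selecting measure, and the number of far peaks is a description and not a finding.

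The peak lists came from chromatin immunoprecipitation and sequencing (ChIP-seq) of primary mouse embryonic fibroblasts, proliferating at passage 4. CAP-D3 was precipitated in 1 library of Rb+/+ fibroblasts and in 1 of RbΔL/ΔL fibroblasts, in which both copies of the gene carry the ΔL change. A sample of input DNA completes the set, and its values were not analysed here. The number of embryos behind each library is not stated. With 1 library per genotype and no read totals, every comparison describes these libraries, no test of genotype was possible, and the depth behind a peak is unknown. Intervals below are at 95%, are exact unless another method is named, and cover counting error only, since neighbouring peaks are not independent. Positions are in mouse build mm9. No gene annotation or sequence of that build was used here, so whether a region is exonic, intronic or intergenic was not determined and no bases are shown.

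CAP-D3 is a subunit of condensin II, a ring-shaped complex that loops and compacts chromatin, stays in the nucleus through interphase and is needed for chromosome shape in mitosis. The retinoblastoma protein, best known for holding E2F transcription factors in check, can bring condensin II to chromatin. The ΔL mutation alters the pocket surface that binds LXCXE-containing partners and leaves E2F binding by the protein largely intact. Because a peak is called only where reads pass a threshold, a site far from any Rb+/+ peak is one without a listed Rb+/+ neighbour, and signal below the threshold in the Rb+/+ library is not known.

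The far peaks were spread over large stretches in which the Rb+/+ list was empty. Their median distance to the nearest Rb+/+ peak was 745 kb (quartiles 597 and 1000 kb, range 503 to 3566 kb). At least 1 Mb separated 92 of them (25.1%) from the Rb+/+ list, and 10 (2.73%) were 2 Mb or more away. The limit of 500 kb cut through a continuous range. The last peaks inside it were chr3:38679747-38680077 (503.2 kb, score 65.60), chr19:26747389-26747800 (503.6 kb, score 59.50), chr1:160091520-160092002 (504.9 kb, score 56.18), chr12:106214920-106215360 (506.9 kb, score 85.50) and chr14:82935744-82936173 (508.8 kb, score 59.06). The first outside were chr5:139228156-139228529 (499.2 kb, score 62.54), chr6:148780340-148780634 (498.2 kb, score 65.68), chr5:139230373-139230800 (496.9 kb, score 62.65), chr6:44849865-44850067 (495.8 kb, score 116.85) and chr1:156034959-156035251 (495.5 kb, score 65.68). The score is the value the authors deposited with each peak, and it ranks peaks only within a list.

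The 5 most distant peaks all lay in a single interval of chromosome 1. They were chr1:29241005-29241356 (3566 kb from the nearest Rb+/+ peak), chr1:28736344-28736821 (3062 kb), chr1:28471996-28472231 (2797 kb), chr1:30988524-30988842 (2738 kb) and chr1:31115660-31115887 (2611 kb). Their scores ran from 56.44 to 95.25, all below the highest-scoring far peaks. The next ranks were held by chr8:7952885-7953231 (2540 kb), chr14:109271700-109272016 (2515 kb), chr8:8021749-8022181 (2472 kb), chr8:8327909-8328339 (2165 kb) and chr8:52453375-52453802 (2143 kb). Apart from the chromosome 14 peak and the last on chromosome 8, these 10 peaks belonged to 2 runs of adjacent far peaks, on chromosomes 1 and 8, and the chromosome 14 peak to the widest run.

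RbΔL/ΔL peaks were sparse where the Rb+/+ list was empty. The sequence at 500 kb or more from every Rb+/+ peak, called the far territory here, came to 420.4 Mb, or 17.4% of the 2415 Mb counted (each autosome from 3 Mb to its end). It carried 0.871 RbΔL/ΔL peaks per Mb (interval 0.784 to 0.965), against 2.97 per Mb (interval 2.89 to 3.04) in the other 1995 Mb. The ratio of these densities was 0.294 (interval 0.263 to 0.326). Even placement of all autosomal RbΔL/ΔL peaks by length would have put 1094 in the far territory, against the 366 found. Sequence to which reads cannot be assigned was left in these lengths and in those of the distance bands below. Its part in the low densities was not tested. Leaving the overlapping peaks out of the other sequence gave 2.44 peaks per Mb there and a ratio of 0.357 (interval 0.320 to 0.397).

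The density of RbΔL/ΔL peaks that overlap no Rb+/+ peak fell with distance in every band. It was 5.01 per Mb within 10 kb of an Rb+/+ peak, 3.43 from 10 to 50 kb, 2.57 from 50 to 100 kb, 1.86 from 100 to 250 kb and 1.25 from 250 to 500 kb. The fall went on inside the far territory, from 0.976 per Mb (274 peaks, interval 0.864 to 1.099) between 500 kb and 1 Mb to 0.658 (92 peaks, interval 0.531 to 0.807) beyond 1 Mb. The ratio of these last densities was 0.674 (interval 0.526 to 0.857). The limit of 500 kb thus cut a gradual fall.

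**Figure D1:**
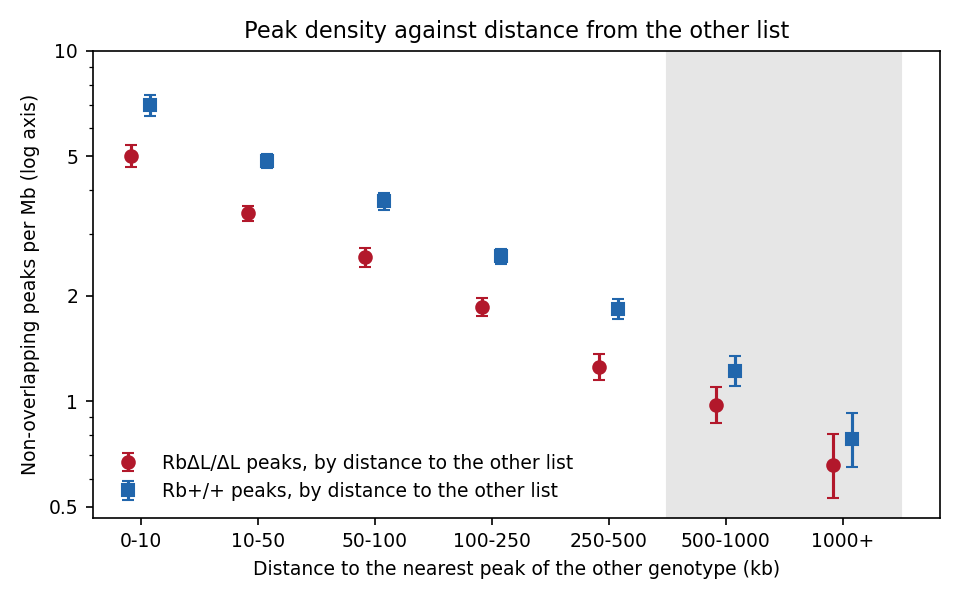
Density of non-overlapping peaks (peaks per Mb of sequence, log axis, with exact 95% Poisson intervals) in bands of distance to the nearest peak of the other list, for RbΔL/ΔL peaks (red circles) and Rb+/+ peaks (blue squares). Grey marks 500 kb and beyond, where the RbΔL/ΔL densities are 0.976 and 0.658 per Mb. Both series fall from band to band.

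Rb+/+ peaks followed the same course when measured against the RbΔL/ΔL list. Of 7974 autosomal Rb+/+ peaks, 537 (6.73%, interval 6.19 to 7.31%) lay 500 kb or more from any RbΔL/ΔL peak. The far shares of the 2 lists are not compared, because they depend on list length: with the Rb+/+ list cut to the length of the RbΔL/ΔL list, 525 RbΔL/ΔL peaks were far. The territory open to far Rb+/+ peaks was 498 Mb. Their density in it was 1.08 per Mb (interval 0.989 to 1.17), and the ratio to the density elsewhere was 0.278 (interval 0.254 to 0.304). Because both measurements use the same pair of lists, they are not independent of each other. On the X chromosome, which the selection leaves out, 32 of 154 RbΔL/ΔL peaks (20.8%, interval 14.7 to 28.1%) were 500 kb or more from an Rb+/+ peak. That share also depends on how many Rb+/+ peaks the X holds. The far territory of the X was not computed, so the share is not compared with the autosomal one.

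Among autosomes, the far peaks were divided much as the far territory was. Chromosome 1 had the most, 37 (10.1% of the 366), and also the most far territory (10.2%). Chromosomes 4, 12, 3 and 8 followed with 33, 28, 27 and 26 peaks, and chromosome 19 had the fewest, 8. For 18 of the 19 autosomes, the interval of the observed number over that from even placement included 1. Each interval was read alone, and 1 miss among 19 can arise under even placement. The exception was chromosome 7, with 17 peaks where even placement gave 30.8 (ratio 0.553, interval 0.322 to 0.885). The 2 longest Rb+/+ peak-free intervals of the chromosome, chr7:39056583-46718868 and chr7:6392067-13489268, held 0 and 1 of these peaks. Without them the ratio was 0.792 (interval 0.453 to 1.29), an alternative added after the data were seen. The highest ratios, 1.93 on chromosome 19 (interval 0.832 to 3.80) and 1.59 on chromosome 10 (interval 0.957 to 2.48), were not separated from 1 at these counts.

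On 6 autosomes (1, 2, 9, 11, 12 and 14) the interval of the far peaks' share left out the share of the other autosomal RbΔL/ΔL peaks. Chromosome 12 held 7.65% of the far peaks (interval 5.14 to 10.9%) and 3.6% of the other autosomal RbΔL/ΔL peaks, and far peaks made up 11.6% of all its peaks. On chromosome 14 the shares were 6.56% (interval 4.25 to 9.60%) and 3.33%. Chromosome 11, which is rich in peaks, held 3.28% of the far peaks (interval 1.71 to 5.66%) and 7.18% of the others, and chromosome 2 held 4.37% (interval 2.52 to 7.002%) and 7.93%. The far territory was distributed in the same way, since it made up 21.2% of chromosome 12 and 28.2% of chromosome 14 but 9.68% of chromosome 11 and 13.5% of chromosome 2.

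**Figure D2:**
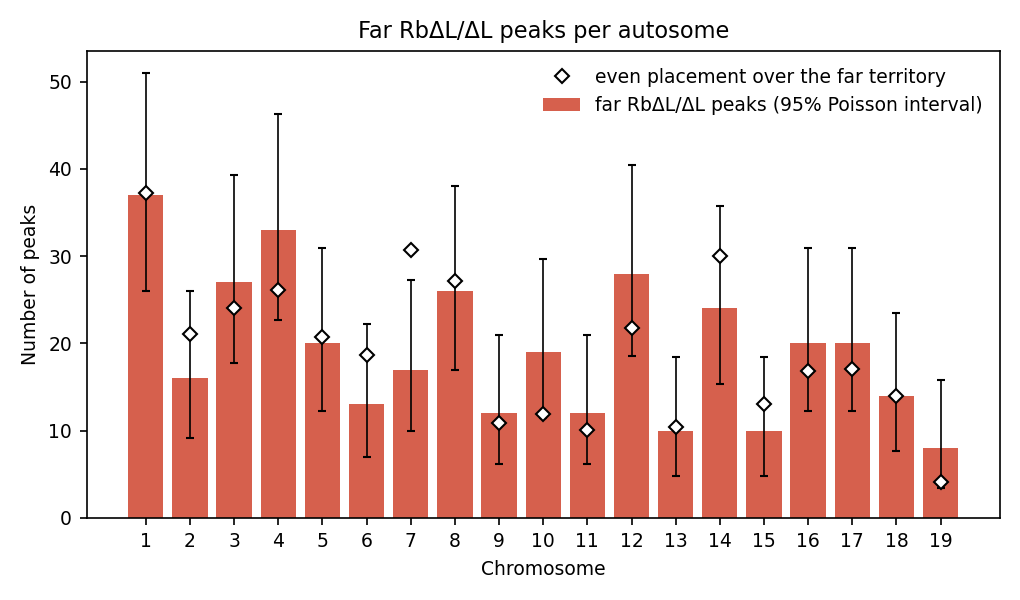
Number of far RbΔL/ΔL peaks on each autosome (bars, with exact 95% Poisson intervals) and the number that even placement over the far territory gives (diamonds). The interval of chromosome 7, with 17 peaks against 30.8, is the one that misses its diamond. Among 19 intervals, 1 miss can arise under even placement.

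Position along the chromosome also followed the territory. When each autosome was cut into 5 equal parts from the centromeric end, which in the mouse is the low-coordinate end, the first part held 100 far peaks (27.3%, interval 22.8 to 32.2%), and the last held 59 (16.1%, interval 12.5 to 20.3%). The other RbΔL/ΔL peaks ran the opposite way, with 16.6% in the first part and 24.2% in the last. Far territory amounted to 28.7% and 14.5% in these parts, and the ratios to even placement were 0.952 (interval 0.774 to 1.16) and 1.11 (interval 0.848 to 1.44). In the parts between, the ratios were 0.948, 0.945 and 1.11, and all their intervals included 1. Near the centromeric end, within 5 Mb of the first counted base, there were 16 far peaks where even placement gave 17.5. In the last 5 Mb there were 19 where it gave 13.9 (ratio 1.37, interval 0.822 to 2.13).

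The Rb+/+ peak-free intervals that reach beyond 500 kb from both flanking peaks, or from the single flanking peak at a chromosome end, numbered 548. Of these, 218 (39.8%) held at least 1 far peak, close to the 207 that even placement over their far lengths gives. With 5 or more far peaks there were 8 intervals, and even placement gave 8.61. A further reading of the same intervals showed that 127 held no RbΔL/ΔL peak of any kind, and these are stretches empty in both lists. Density fell with the length of the interval. Intervals with up to 250 kb of far sequence carried 1.32 far peaks per Mb (27 peaks, interval 0.867 to 1.91), those with 1 to 2 Mb 0.886 (113 peaks, interval 0.730 to 1.07) and those with more than 2 Mb 0.633 (94 peaks, interval 0.512 to 0.775). Sequence to which reads cannot be assigned was not removed from the lengths, and its part in the low density of the longest intervals was not tested.

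Far peaks followed each other along the chromosomes. A run was counted as successive far peaks with no other RbΔL/ΔL peak between them. The 366 peaks formed 210 runs, of which 124 were single peaks and 86 held 2 or more. These 86 runs took in 242 peaks (66.1%, interval 61.0 to 71.0%) and had a median span of 466 kb. The mean run was 1.74 peaks, and mixing far and other peaks evenly along the list would give 1.06. In 78 of the 86 no Rb+/+ peak lay inside, and in the other 8 at least 1 did. This count is largely set by the selection. With each far peak 500 kb or more from the Rb+/+ list, only a gap of over 1 Mb can hold an Rb+/+ peak. By length there were 47 runs of 2, 23 of 3, 7 of 4, 5 of 5, 2 of 6 and 2 of 7. The widest run, chr14:107463929-115696774, had 4 peaks over 8233 kb and enclosed 2 Rb+/+ peaks. Runs follow from the selection, because a peak-free Rb+/+ interval makes all peaks in its middle far peaks together. Whether any part of their length goes beyond that was not tested.

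**Figure D3:**
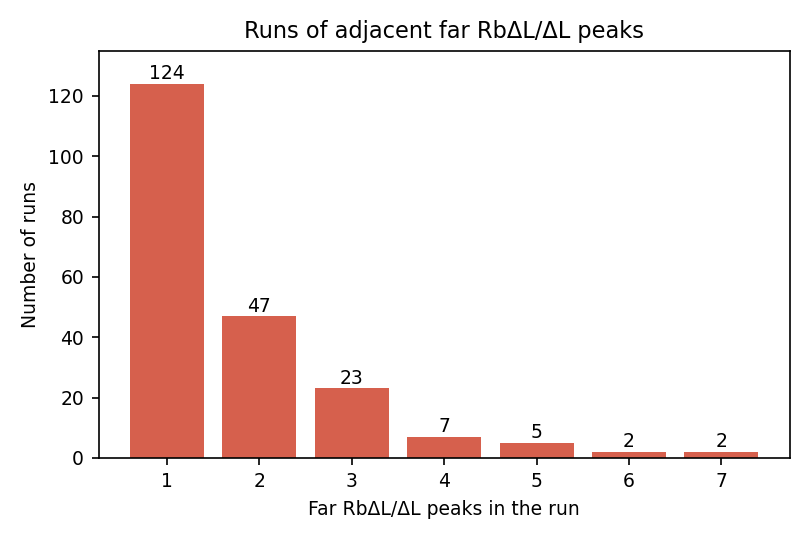
Number of runs (y axis) by the number of adjacent far RbΔL/ΔL peaks in the run (x axis). Single peaks account for 124 of the 210 runs, and 9 runs hold 5 or more.

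The 9 runs of 5 or more peaks held 51 far peaks on 7 chromosomes. The longest by number of peaks, with ties settled by span, was chr8:5717163-9976391, with 7 peaks over 4259 kb in an Rb+/+ peak-free interval of 6218 kb. Its first peak stood apart by 2235 kb, and the next 5 were chr8:7952885-7953231 (score 75.20), chr8:8021749-8022181 (score 58.89), chr8:8327909-8328339 (score 72.35), chr8:8703890-8704227 (score 65.08) and chr8:8918007-8918373 (score 63.01). The scores of all 7 were between 50.47 and 75.20. The other run of 7, chr12:62624930-66170004, spanned 3545 kb and enclosed 1 Rb+/+ peak, which lay after its peak at chr12:62635657-62636134 and before that at chr12:64257675-64258125. Scores there ran from 60.38 to 80.18.

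The run of 6 on chromosome 1, chr1:28471996-31889690, lay in the longest of the 548 Rb+/+ peak-free intervals, 8053 kb from chr1:25674601 to chr1:33727152, which held 9 RbΔL/ΔL peaks in all. Its members were 1837 kb or more from the Rb+/+ list, and their scores ran from 56.44 to 95.25. Peaks there were thinly sown, with a median gap of 504 kb. A run of 5 on the same chromosome, chr1:102229770-106234263, spanned 4004 kb, enclosed 2 Rb+/+ peaks and had low scores throughout (56.18 to 65.68).

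Among the 9 runs, those on chromosomes 7 and 4 had the smallest median gaps between peaks, 46.8 and 98.03 kb. At chr7:80683704-81343320, 6 far peaks fell within 660 kb, in an interval of 1903 kb between Rb+/+ peaks, and 4 of them started within 87.7 kb of each other. These 4 were chr7:80683704-80684143 (score 58.49), chr7:80690574-80690947 (score 62.54), chr7:80737784-80738029 (score 80.18) and chr7:80771427-80771690 (score 95.25). The same interval held 10 RbΔL/ΔL peaks in all, so this stretch of chromosome 7 was populated in 1 list and empty in the other. At chr4:96702456-97109994, 5 far peaks fell within 408 kb, and the first of them, chr4:96702456-96702642, had a score of 110.84. The remaining runs of 5 were chr19:25620239-26747800, chr14:122618120-123497319 and chr8:14338136-14968525, with spans of 1128, 879 and 630.4 kb. The chromosome 8 run lay at 1 side of its interval, 552 kb from the Rb+/+ peak before it and 3522 kb from the one after.

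**Figure D4:**
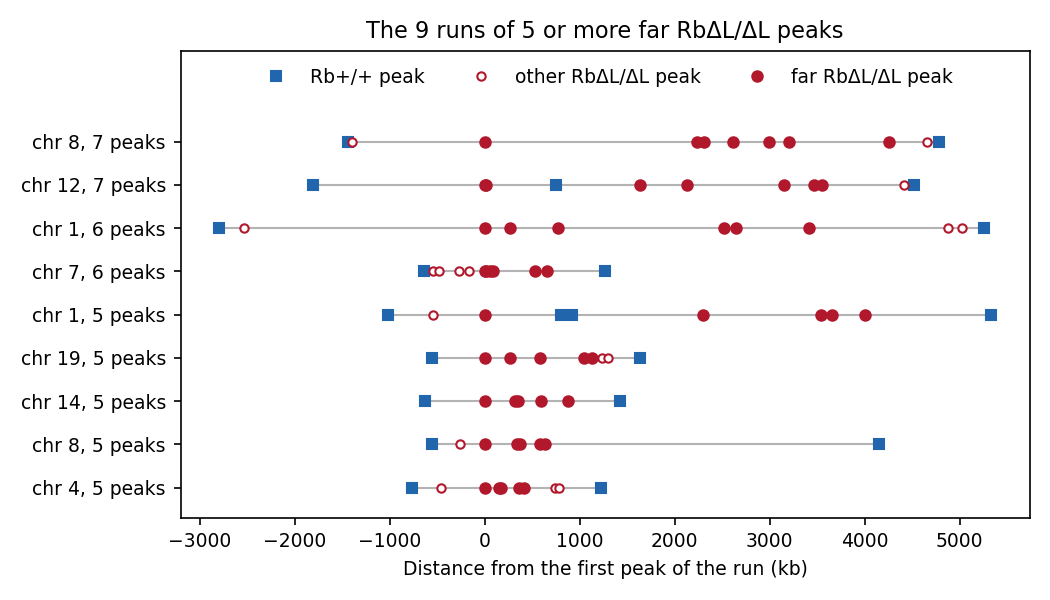
Positions of far RbΔL/ΔL peaks (filled red), other RbΔL/ΔL peaks (open red) and Rb+/+ peaks (blue) in the 9 runs of 5 or more far peaks, as distance in kb from the first peak of each run. Grey lines join the flanking Rb+/+ peaks. The runs on chromosomes 12 and 1 (5 peaks) enclose Rb+/+ peaks, and those on chromosomes 7 and 4 have the smallest median gaps (46.8 and 98.03 kb).

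Pairs of far peaks were closer than even placement over the far territory gives at the scale of 100 kb. There were 47 pairs with centres within 100 kb, against 29.8 from even placement (ratio 1.58, interval 1.16 to 2.10), and 153 within 500 kb against 119 (ratio 1.29, interval 1.09 to 1.51). Members of a run enter several pairs, so these intervals are too narrow. When each interval kept its own number of peaks and only their positions were spread evenly, 38.2 pairs were given within 100 kb, and the ratio was 1.23 (interval 0.905 to 1.64). Within 500 kb the same reading gave 134.1 pairs and a ratio of 1.14 (interval 0.9675 to 1.337). Among the 9 runs of 5 or more peaks, the 2 of smallest median gap were on chromosomes 7 and 4. Without them, 39 pairs remained against 28.2 (ratio 1.38, interval 0.984 to 1.89). Taking out runs picked for small gaps favours a lower ratio by construction. All of these further readings were added after the data were seen, and their intervals all include 1. Spacing closer than even was thus not separated from an uneven filling of the intervals, and the part of these 2 runs in it was not tested.

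Close pairs were few. Within 10 kb there were 6 pairs, against 3.16 from even placement (ratio 1.90, interval 0.698 to 4.14). The closest were chr3:55986957-55987415 and chr3:55987744-55988236, 328 bp apart, with scores of 67.06 and 52.74. Next came chr14:118630115-118630552 and chr14:118636187-118636572 with a gap of 5634 bp, and the first pair of the chromosome 7 run with a gap of 6430 bp. The others were at chr3:132307929-132317354 (gap 8743 bp), chr12:27086745-27096504 (gap 8868 bp) and chr8:65159339-65169656 (gap 9537 bp). Of the far peaks, 3.28% (12 peaks, interval 1.71 to 5.66%) had another RbΔL/ΔL peak within 10 kb, against 11.8% (interval 10.9 to 12.8%) of RbΔL/ΔL peaks that were nearer to the Rb+/+ list without overlap. The nearest RbΔL/ΔL peak was a median of 329 kb away for far peaks (interval 278 to 385 kb) and 79.8 kb for the nearer ones (interval 77.2 to 83.4 kb). Far peaks were therefore also distant from peaks of their own list. The spacing that the low density of the far territory gives by itself was not computed, so this is not a trait apart from that density.

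Scores of the far peaks were like those of nearer RbΔL/ΔL peaks without an Rb+/+ overlap. The median score was 63.43 (interval 62.54 to 64.59, quartiles 58.42 and 73.44) for the far peaks and 63.70 (interval 63.15 to 64.13) for the nearer ones. A score of 100 or more was reached by 13.2% of all autosomal RbΔL/ΔL peaks, by 17 far peaks (4.64%, interval 2.73 to 7.33%) and by 226 nearer peaks without overlap (4.65%, interval 4.07 to 5.28%). The difference of the last shares had a Newcombe interval of -1.84 to 2.72 percentage points. Overlapping peaks had much higher scores, with a median of 110.8 and 55.8% at 100 or more. The highest score of a far peak was 143.33, and 0 of 366 reached 200. Among nearer peaks without overlap 1 of 4865 did, and among overlapping peaks 259 of 1052. The 0 therefore does not set far peaks apart from the nearer ones without overlap. By the approximate rule of 3 (3 divided by 366), it allows a share of up to 0.820%. In the opposite direction, far Rb+/+ peaks reached 100 less often than nearer Rb+/+ peaks without overlap, 2.42% against 4.87% (difference -2.45 points, Newcombe interval -3.59 to -0.699).

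The median far peak was 22 bp narrower than the median nearer one. Their median width was 390 bp (interval 380 to 411, quartiles 335 and 457), against 412 bp (interval 408 to 415) for RbΔL/ΔL peaks that were nearer without overlap and 432 bp (interval 420 to 444) for overlapping peaks. With the nearer median taken as fixed, the difference from it was -22 bp (interval -32 to -1, but -44 to 5 with a limit of 1 Mb), while the intervals of the 2 medians overlap by a few bp. Among scores from 60 to 80 the medians were 369 bp (168 peaks, interval 362 to 381) and 383 bp (interval 379 to 387), and below 60 they were 440 bp (interval 432 to 455) and 446 bp (interval 443 to 448). The widest far peak was chr14:15535104-15535847, at 744 bp (score 80.28). By distance, RbΔL/ΔL peaks without overlap had medians of 411 to 413.5 bp in the bands below 250 kb and 405 bp from 250 to 500 kb. Beyond that the medians were 391.5 bp up to 1 Mb and 389 bp past it. No intervals were computed for these bands. In Rb+/+ the far peaks had a median of 414 bp (interval 406 to 424) and the nearer ones without overlap 423 bp (interval 420 to 425).

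The far peaks with the highest scores were mostly narrow. Of the 17 with a score of 100 or more, 13 were under 250 bp wide, a width chosen after the values were seen, and their median width was 205 bp (interval 190 to 237). Among the 226 nearer peaks at such scores, 106 (46.9%) were that narrow, with a median of 294 bp (interval 239 to 379). The share was 29.6 percentage points higher for far peaks (Newcombe interval 4.96 to 44.9). The Newcombe intervals in this paragraph do not allow for the choice of width, so they are no support for a difference. Over all scores the shares were closer: 24 of the 366 far peaks (6.56%) and 5.69% of the nearer ones were that narrow (difference 0.864 points, Newcombe interval -1.36 to 3.94). At scores from 80 to 100 the shares were 20.8% (10 of 48, interval 10.5 to 34.99%) and 23.1% (interval 19.9 to 26.6%). The opposite set gave the same order, with 10 of 13 far Rb+/+ peaks narrow at such scores and 34 of 311 nearer ones (difference 65.99 points, Newcombe interval 38.5 to 81.2). Of all overlapping RbΔL/ΔL peaks at 100 or more, 3.07% were that narrow. With width limits of 220 and 300 bp, the share of the 17 far peaks was 58.8% and 76.5%. The nearer peaks were not counted at those limits.

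The highest-scoring far peak was chr8:106559145-106559330, 186 bp wide with a score of 143.33. It was followed by chr4:20448098-20448323 (226 bp, 137.76), chr15:88140547-88140719 (173 bp, 126.88), chr4:114777371-114777578 (208 bp, 126.88) and chr14:66915042-66915498 (457 bp, 122.64), the only wide peak among these. A tie of 9 peaks at 110.84 came next, all between 187 and 237 bp wide. These included chr4:5149495-5149684, chr11:9895464-9895668, chr7:18809337-18809573, chr12:54853784-54853987 and chr4:71416325-71416514. Only 3 further far peaks, at 104.35 to 106.59, passed 100, and they were 365 to 538 bp wide.

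Many far peaks shared exactly the same score. The 4 scores most frequent among the nearer peaks without overlap, 65.68, 80.18, 52.40 and 95.25, were carried by 63 far peaks (17.2%, interval 13.5 to 21.5%) and 682 nearer ones (14.02%, interval 13.05 to 15.03%), but by 6.37% of overlapping peaks. The 26 far peaks at 65.68 were 276 to 330 bp wide, the 21 at 80.18 were 236 to 320 bp and the 10 at 95.25 were 211 to 308 bp. The higher of these scores went with narrower peaks. Across peaks, width and score were negatively related among far peaks (Spearman's rho -0.49, n = 366) and among nearer ones without overlap (-0.31, n = 4865), and positively among overlapping ones (0.17, n = 1052). Peaks of a list share their library and its caller settings, and no p-value is attached.

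**Figure D5:**
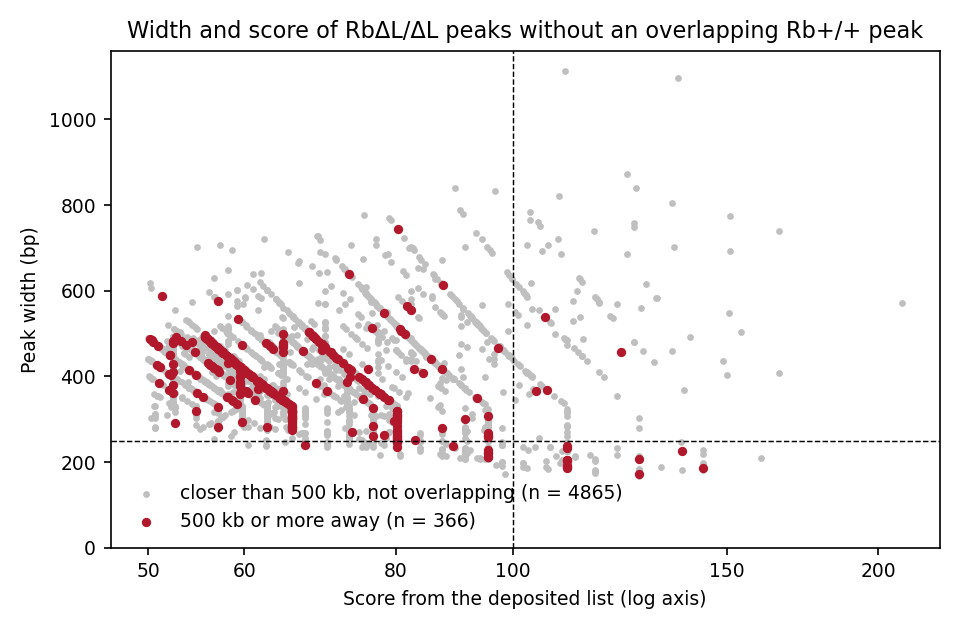
Width in bp (y axis) against score (x axis, log axis) of RbΔL/ΔL peaks without an overlapping Rb+/+ peak, for the 366 far peaks (red) and the 4865 nearer ones (grey). Dashed lines mark 250 bp and a score of 100. Peaks fall on vertical and sloping tracks, and 13 of the 17 far peaks right of 100 lie under 250 bp.

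Chromosome 4 is described among the high-scoring far peaks because of its values, which had been seen first. That chromosome held 7 of the 17 at 100 or more (41.2%), 6 of them narrow, and 26 of the 349 lower-scoring far peaks (7.45%). The 17 high-scoring far peaks were on 10 chromosomes in all. Among nearer peaks without overlap, chromosome 4 held 20 of 226 at such scores (8.85%). No interval is given for a chromosome picked for its share.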

How the data were processed

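The submitters' processing notes name Bowtie 1.0, MACS 1.4.2 and build mm9. For parameters, control library and duplicate or multiply mapping reads, the entry is: not given in the sources used here. The authors deposited 1 peak list per ChIP library, with a score for each peak whose meaning no header states. Starts are printed 1-based.

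Distances, territory, runs and intervals were computed in Python 3.11.15 (numpy 2.4.6, pandas 2.3.3, scipy 1.17.1, matplotlib 3.10.9), with mm9 chromosome lengths from GenomeInfoDb 1.38.1. Even placement was computed from lengths, with no random draws. Intervals are Poisson for numbers over expectations, conditional binomial for ratios of densities, Clopper-Pearson for shares, order-statistic for medians and Newcombe for differences of shares. The code was tested on simulated lists. The regions, lists and limits were chosen with earlier results of these data known. Named were the 10 highest-scoring peaks (ties by start), the 10 most distant, the longest runs, pairs within 10 kb and the 5 peaks on each side of the limit.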

Additional observations from a re-analysis of the deposited data

How the results depend on the processing

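The 12 results were recomputed under 37 alternatives, 5 of them added after the data were seen. Numbers within 1.5 times and other values within the 95% interval counted as kept, which held for 23, and 14 moved. Some kept values had intervals that newly included even placement or 0. Chromosome 7 did so against full lengths and without its 2 longest Rb+/+ peak-free intervals. So did both added readings of pairs within 100 kb and the width difference at 1 Mb. A limit of 250 kb gave 914 far peaks, with 73.2% in runs of 2 or more. A limit of 1 Mb gave 92, with 58.7% in such runs, a density ratio of 0.242, 0 with another RbΔL/ΔL peak within 10 kb, and 2 autosomes apart from even placement (chromosome 7, ratio 0.192, and chromosome 14, ratio 0.365). A minimum score of 60 left 233 far peaks and one of 100 left 17. Cutting the Rb+/+ list to the 6437 highest scores, the length of the RbΔL/ΔL list, gave 525 far peaks and a density ratio of 0.301. Against full chromosome lengths, 2 autosomes stood apart, chromosome 2 below (ratio 0.595) and chromosome 12 above (1.56), and chromosome 7 did not (0.753, interval 0.439 to 1.205). Neighbours within 1 kb were found for 0.546% and within 100 kb for 22.4%. The width difference at 1 Mb was -22 bp, with an interval that included 0 (-44 to 5). Against all other RbΔL/ΔL peaks, overlapping ones included, the median score differed by -2.25. Limits and minimum scores change which peaks are counted, by construction, and other causes were not tested. No paired analysis was possible because there is a single library per genotype, and for the same reason none could be left out. The unknown depth limits what low-scoring peaks show.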
